A study of Mus musculus with 4 samples.

Results

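MicroRNA genes other than Mir21 were followed through the polyadenylated RNA of mammary glands with and without miR-21. The deposited expression table lists 30506 loci, and a locus was taken when any of its gene names was that of a microRNA gene, with the row that holds Mir21 and its host Vmp1 left out. This gave 589 loci that carry 584 distinct microRNA names. Of these, 524 were microRNA-only, that is, no other gene name stood in the row, and 65 were merged with another gene. The microRNA-only loci fell into 200 hairpin-sized rows of at most 150 bases, 295 longer rows that lay inside or across another named row, and 29 longer rows that stood alone.

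The samples were mammary glands of 2-month-old mice on the mixed background 129SV::FVB/N::C57BL/6. There were 2 miR-21+/+ mice and 2 miR-21-/- mice, which lack both copies of miR-21. Each genotype has 1 value per locus, given as FPKM (reads corrected for exon length and for the size of the library), which combines its 2 mice. The spread between mice and the read depth are therefore unknown, and no new test could be made from these values. The authors' own test results were not used, and every difference given here is between 2 single values. The merged Mir21,Vmp1 row stood at 42.5 FPKM in miR-21+/+ and 68.2 FPKM in miR-21-/- glands, and since it includes the Vmp1 messenger RNA it does not check the deletion.

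A microRNA is transcribed as a long primary transcript that carries 1 or more hairpins. The Microprocessor, built of Drosha and Dgcr8, cuts the hairpin out in the nucleus, and Dicer1 trims it to a mature strand that guides an Argonaute protein to target messenger RNAs, mainly through the seed near its 5′ end. Mature microRNAs have no poly(A) tail and are too short for a messenger RNA library, so these values describe primary transcripts, or host messenger RNAs, and not mature microRNAs. In the mammary gland the miR-200 family and miR-205 are known for epithelial cells, the miR-143 and miR-145 cluster for smooth muscle and related contractile cells, and miR-142 and miR-223 for blood cells.

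The mature sequences of the microRNAs on which the results turn are shown with the seed, bases 2 to 8, in capitals. They are RefSeq sequences (assembly GRCm38.p6), and 505 of the 584 names had an entry. The first set holds the epithelial microRNAs, and miR-200b and miR-429 share their whole seed.
miR-200b-3p: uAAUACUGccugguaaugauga
miR-429-3p: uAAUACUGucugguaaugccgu
miR-205-5p: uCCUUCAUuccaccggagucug

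On the mm9 assembly miR-200b-3p lies at chr4:155429794-155429815 and miR-429-3p at chr4:155428025-155428046, both on the minus strand, and miR-205-5p lies at chr1:195333697-195333718 on the minus strand. The next set is the let-7 family, whose members have 1 common seed, and whose loci did not share 1 direction in these samples.
let-7b-5p: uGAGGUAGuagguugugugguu
let-7d-5p: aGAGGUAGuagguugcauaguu
let-7e-5p: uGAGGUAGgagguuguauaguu
let-7f-5p: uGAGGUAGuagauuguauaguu

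Mature let-7b-5p lies at chr15:85537755-85537776 and let-7e-5p at chr17:17967330-17967351, both on the plus strand, and let-7d-5p lies at chr13:48631447-48631468 on the minus strand. The let-7f-5p strand is encoded at 2 places, chr13:48633258-48633279 on the minus strand beside let-7d, and chrX:148346896-148346917 on the plus strand. The microRNAs of blood cells follow, because miR-146a and miR-146b share a seed and come from different loci, and because the miR-142 locus was the only one of the group past 2-fold downwards.
miR-142a-3p: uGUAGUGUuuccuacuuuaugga
miR-142a-5p: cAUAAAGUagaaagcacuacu
miR-146a-5p: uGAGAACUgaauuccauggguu
miR-146b-5p: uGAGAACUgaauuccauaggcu
miR-223-3p: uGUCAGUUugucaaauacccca

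These lie at chr11:87570405-87570427 and chr11:87570369-87570389 (plus strand) for the miR-142a strands, chr11:43187937-43187958 (minus) for miR-146a-5p, chr19:46417280-46417301 (plus) for miR-146b-5p and chrX:93438223-93438244 (plus) for miR-223-3p. Of the paralogous 23-27-24 clusters, both encode the same miR-24-3p and their miR-27 strands share a seed, so that the 2 clusters can be compared below.
miR-23a-3p: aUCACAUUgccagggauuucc
miR-24-3p: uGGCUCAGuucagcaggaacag
miR-27a-3p: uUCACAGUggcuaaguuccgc
miR-27b-3p: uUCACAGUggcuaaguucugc

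The first cluster holds miR-23a-3p at chr8:86732462-86732482, miR-27a-3p at chr8:86732626-86732646 and miR-24-3p at chr8:86732774-86732795. The second holds miR-27b-3p at chr13:63402068-63402088 and miR-24-3p at chr13:63402559-63402580, and all 5 are on the plus strand. The last set comes from the imprinted region between Meg3 and Mirg and from rows that copy other genes.
miR-370-3p: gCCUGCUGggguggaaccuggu
miR-409-3p: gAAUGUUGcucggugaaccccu
miR-410-3p: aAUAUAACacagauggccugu
miR-1906: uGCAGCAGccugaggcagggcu
miR-703: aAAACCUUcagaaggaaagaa
miR-682: cUGCAGUCacagugaagucug

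On chromosome 12, miR-1906 lies at chr12:110782798-110782819, miR-370-3p at chr12:110856515-110856536, miR-409-3p at chr12:110981414-110981435 and miR-410-3p at chr12:110981974-110981994, all on the plus strand. The same miR-1906 strand is also encoded at chrX:86004824-86004845 on the minus strand. The strand of miR-703 lies at chr5:98904635-98904655 (minus) and that of miR-682 at chr13:75782567-75782587 (plus).

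Most microRNA-only loci had no value above 0 in this RNA. Only 132 of 524 were above 0 in at least one genotype, so that 74.8% were listed at 0 in both, including 20 rows marked by Cuffdiff as failed calculations, against 3 of the 65 merged loci (4.62%) and 14.7% of all 22483 loci with a gene name. Another 28 microRNA-only loci were at 0 in miR-21+/+ alone and 23 in miR-21-/- alone, and 81 were above 0 in both. For all 22483 named loci the counts at 0 in 1 genotype alone were 440 and 556. Of the 29 stand-alone transcripts 3 were at 0 in both, of the 295 rows that share their place 224, and of the 200 hairpin-sized rows 165. The levels reached 44.3 FPKM among microRNA-only loci and 498 FPKM among merged loci.

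Differences between the genotypes were counted at 2-fold or more, among loci above 0 in both genotypes and over 1 FPKM in at least one. Under this rule 11 of 58 microRNA-only loci (19%) were higher in miR-21-/- glands, against 2.03% of the 13551 named loci, and 3 (5.17%) were lower, against 2.52%. Of these loci Mirlet7e, Mir146b, Mir1943, Mir1981, Mir1949, Mir466i and Mir1896 passed 1 FPKM only in miR-21-/- glands. Mir1895 and Mir680-2 passed it only in miR-21+/+ glands. They met the minimum only through the genotype where they were high, so the shares are not read as a trait of microRNA loci. Low and short loci vary more whatever their kind, and among named loci of at most 5000 bases with the higher value between 1 and 20 FPKM the shares were 5.92% higher and 5.3% lower. That set is not matched to the microRNA-only loci, of which 43 were at 1 to 5 FPKM. At that level 23.3% were higher and 4.65% lower, and over 5 FPKM 6.67% went each way. Rows inside or across another named row had a median length of 93001 bases, so the length limit does not describe them. Of the 11 higher loci 7 were rows inside or across another named row and 2 of the 11, Mir1896 and Mir466i, were marked by Cuffdiff as failed calculations. Of the 65 merged loci 57 passed the same rule, with 2 (3.51%) higher and 0 lower.

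Over the 58 microRNA-only loci the median log2 difference was -0.01, with an interquartile range of -0.25 to 0.59. For the 57 merged loci the median was -0.01 with an interquartile range of -0.12 to 0.11, and for all 13551 named loci it was -0.03 with a range of -0.18 to 0.11. The microRNA-only loci thus had the wider spread, around a median near 0. They were also lower, with 43 of the 58 at 1 to 5 FPKM, whereas 49 of the 65 merged loci were over 5 FPKM. The SD of log2 differences in other named loci was 0.80 between 1 and 2 FPKM and 0.34 between 10 and 20 FPKM. These interquartile ranges were not matched for level. Both columns scaled to equal sums over all loci lower each log2 difference by 0.63, and the split of microRNA-only loci at 2-fold then becomes 3 higher and 12 lower. Equal sums over named loci raise each log2 difference by 0.10, and an equal upper quartile by 0.03.

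**Figure D1:**
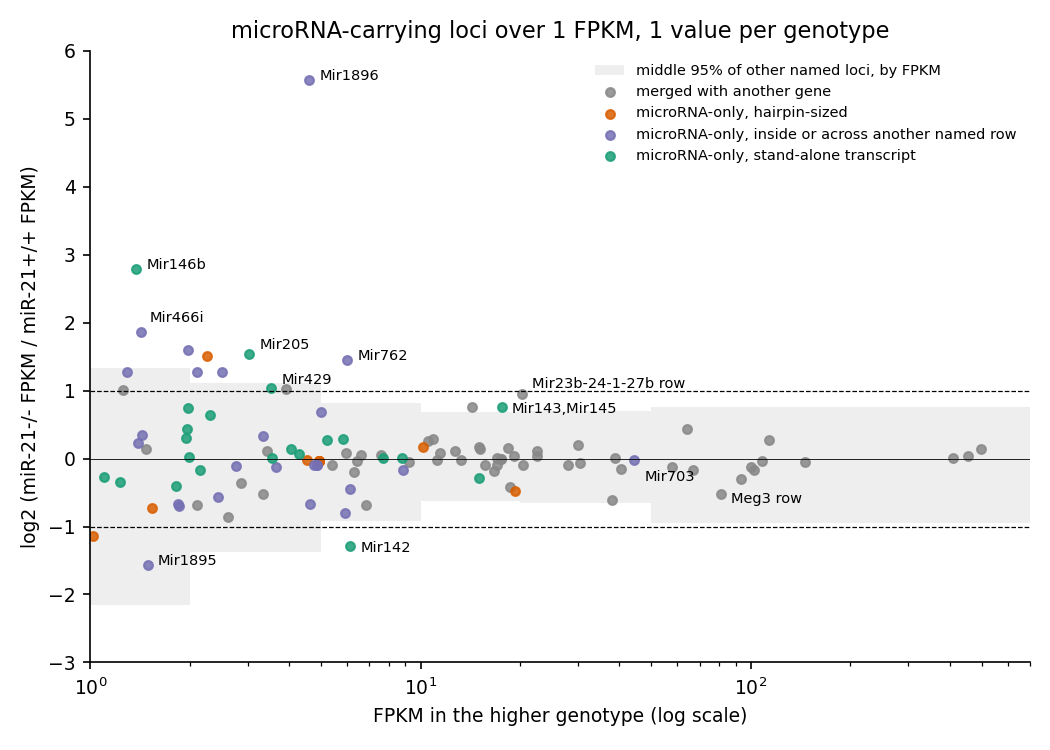
The log2 ratio of miR-21-/- to miR-21+/+ FPKM (vertical axis) against FPKM in the higher genotype (horizontal, log scale) for the 58 microRNA-only and 57 merged loci, with dashed lines at 2-fold and grey bands for the middle 95% of other named loci of like FPKM. Most merged loci lie near 0 across the whole range, whereas 10 microRNA-only loci lie above the band and 1, Mir142, lies below it. The bands are matched for FPKM and not for locus length.

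The epithelial microRNAs were higher in miR-21-/- glands wherever they were detected. Mir205, whose hairpin lies in an exon of the long noncoding RNA 4631405K08Rik, stood at 1.04 FPKM in miR-21+/+ and 3.02 FPKM in miR-21-/- glands, a log2 difference of 1.55. Mir429 stood at 1.71 and 3.52 FPKM, a log2 difference of 1.04, and its neighbour Mir200b was listed at 0 in miR-21+/+ and at 1.23 FPKM in miR-21-/- glands. The hairpins of both lie within an intron of Ttll10 as annotated. Mir200a, Mir200c, Mir141 and Mir203 were listed at 0 in both genotypes, so 3 of the 7 epithelial loci carried the difference.

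The difference in Mir205 was outside the middle 95% of other named loci between 2 and 5 FPKM, which ran from -1.38 to 1.12, and that in Mir429 was inside it. Epithelial messenger RNAs moved the same way. Of 9 markers of luminal epithelium 8 were higher in miR-21-/- glands, with a median log2 difference of 0.50 and a summed level of 651 against 895 FPKM, and all 6 basal markers were higher, with a median of 0.66 and summed levels of 310 and 498 FPKM. Fewer cells of a type and less RNA per cell cannot be told apart in whole tissue, and the part of the epithelial content in the microRNA values was not tested.

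The transcript of the Mir143 and Mir145 cluster was the most abundant stand-alone primary transcript in miR-21-/- glands. It stood at 10.4 FPKM in miR-21+/+ and 17.6 FPKM in miR-21-/- glands, a log2 difference of 0.76 that lay above the middle 95% of other loci between 10 and 20 FPKM (-0.62 to 0.68). Acta2, the smooth muscle actin of the myoepithelium, was at 222 and 341.4 FPKM. Of the other mesenchymal loci, Mir199a-1 was at 0.530 FPKM in miR-21+/+ and listed at 0 in miR-21-/- glands. The skeletal muscle microRNAs gave no such signal, since 10 of 11 loci, Mir206 and Mir133b among them, were listed at 0 in both genotypes although the 8 muscle marker messenger RNAs were abundant and summed to 1226 and 2048 FPKM.

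MicroRNAs of blood cells did not move together. Mir142, which is made in all white blood cells, stood at 6.13 FPKM in miR-21+/+ and 2.51 FPKM in miR-21-/- glands, a log2 difference of -1.29, and was the only microRNA-only locus below the middle 95% of its class (-0.92 to 0.82 between 5 and 10 FPKM). The hairpin lies at chr11:87570366-87570429 in an intron of the noncoding transcript A430104N18Rik. Mir223, a microRNA of granulocytes and monocytes that is merged with F630028O10Rik, was at 5.62 and 5.93 FPKM, a log2 difference of 0.08. Mir155 was at 0.376 and 0.321 FPKM, Mir181b-1 at 0.603 FPKM and 0, and Mir150, a microRNA of mature lymphocytes, was listed at 0 in both.

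Markers of lymphocytes and lymph node were lower in miR-21-/- glands for all 10 genes, 9 of them by 2-fold or more, with a median log2 difference of -2.35 and a summed level of 286 against 74.1 FPKM. Ptprc, the pan-leukocyte antigen CD45, was at 21.6 and 10.5 FPKM. The 5 macrophage markers had a median of -0.04 and summed to 736 and 684 FPKM. Mir142 thus moved with the lymphocyte list and Mir223 had a value like that of the macrophage list, and the part of either cell type in the microRNA values was not tested.

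The pair that share the miR-146 seed went in opposite directions. Mir146, which encodes miR-146a, was at 1.10 and 0.909 FPKM, a log2 difference of -0.27, whereas Mir146b was at 0.199 FPKM in miR-21+/+ and 1.37 FPKM in miR-21-/- glands, a log2 difference of 2.79. At these levels the middle 95% of other named loci ran from -2.16 to 1.33, so the value for Mir146b was outside and that for Mir146 inside. Both are known for damping signals through the NF-kB pathway.

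The let-7 microRNAs, which restrain growth-promoting genes, were read mainly at a pair of stand-alone clusters. Mirlet7d,Mirlet7f-1 stood at 7.60 and 7.67 FPKM, and Mirlet7b,Mirlet7c-2 at 4.80 and 5.83 FPKM, log2 differences of 0.01 and 0.28. Mirlet7i was at 1.23 and 0.969 FPKM. The hairpin-sized row of Mirlet7e was at 0.790 and 2.26 FPKM, a log2 difference of 1.51, and 2 further hairpins within 1 kb of it, Mir99b and Mir125a, were listed at 0 in miR-21+/+ and at 0.923 and 1.15 FPKM in miR-21-/- glands. The family thus had 1 locus past 2-fold of the 4 compared, with 3 higher and 1 lower, and 5 of 9 loci listed at 0 in both. With both columns scaled to equal sums over all loci, only Mirlet7e of these stays higher. With equal sums over named loci, or with an equal upper quartile, all 4 keep their direction.

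Other stand-alone primary transcripts mostly differed little between the genotypes. The 17-92 cluster transcript Mir17hg,Mir19b-1,Mir20a, whose microRNAs promote proliferation, was at 3.70 and 4.05 FPKM, and Mir30c-2 was at 3.54 FPKM in both. Mir221, Mir331 and Mir345 were each between 1.45 and 1.98 FPKM in both genotypes. The Mir331 hairpin is identical over 96 bases to part of Vezt, so its row can hold reads of that messenger RNA. The same holds for Mir3061, another stand-alone row over 1 FPKM, whose hairpin is identical over 91 bases to part of Ppp2ca. Mir31 was at 1.18 and 1.98 FPKM, Mir148a at 1.48 and 2.30 FPKM, and Mir365-2, a microRNA of brown fat, at 1.81 and 1.36 FPKM. Of the 22 stand-alone transcripts over 1 FPKM, 16 were higher without miR-21 and 6 were lower, against 6004 higher and 7547 lower of the 13551 named loci. With both columns scaled to equal sums over all loci, unnamed rows included, the split turned to 6 higher and 16 lower. With equal sums over named loci, or with an equal upper quartile, it stayed at 16 higher and 6 lower. As deposited, the median log2 difference was 0.10, and 3 passed 2-fold upwards (Mir146b, Mir205 and Mir429) and 1 downwards (Mir142).

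**Figure D2:**
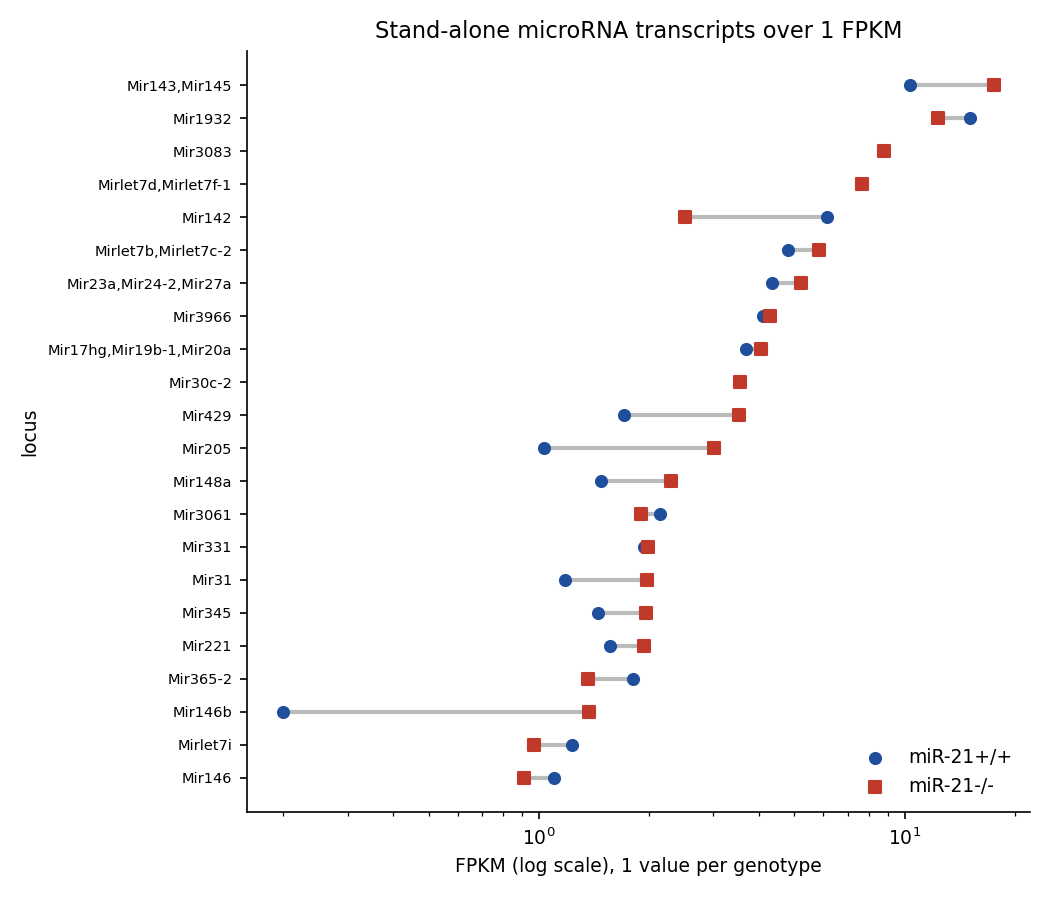
FPKM (horizontal axis, log scale) of the 22 stand-alone microRNA transcripts over 1 FPKM, with 1 value for miR-21+/+ (blue circles) and 1 for miR-21-/- glands (red squares), joined by a grey line. Mir146b, Mir205 and Mir429 show the long steps upwards and Mir142 the step downwards, while Mirlet7d,Mirlet7f-1 and Mir30c-2 overlap.

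The paralogous 23-27-24 clusters had unequal ratios between the genotypes. The stand-alone Mir23a,Mir24-2,Mir27a transcript on chromosome 8 was at 4.33 and 5.21 FPKM, a log2 difference of 0.27. The row 2010111I01Rik,Mir23b,Mir24-1,Mir27b on chromosome 13, in which the cluster is merged with an aminopeptidase gene, was at 10.5 and 20.3 FPKM, a log2 difference of 0.94. This was the largest difference of any merged locus over 5 FPKM, and lay outside the middle 95% of other loci between 20 and 50 FPKM (-0.65 to 0.70). How much of it belongs to the cluster and how much to the host messenger RNA cannot be told apart.

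The merged loci otherwise followed abundant host genes that hardly differed. Cd74,Mir5107 holds the invariant chain of the major histocompatibility complex class II and was at 451 and 498 FPKM. Flt3l,Mir5121,Rpl13a,Snord33, with a ribosomal protein, was at 440 and 454 FPKM, and Ddx5,Mir3064, with an RNA helicase of the Microprocessor, at 410.2 and 410.8 FPKM. These 3 were the highest of all microRNA-carrying loci. Ctdsp2,Mir26a-2,Mir546 was at 93.3 and 113 FPKM and Mir686,Psmb5, with a proteasome subunit, at 102 and 90.7 FPKM.

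Of the 57 merged loci over 1 FPKM, 47 differed by less than 0.5 on the log2 scale and 43 by at most 0.3. Among all named loci 9837 of 13551 differed by at most 0.3, a like share. Those past 2-fold were 5730408K05Rik,Mir5136, at 1.91 and 3.90 FPKM, and Mir1940,Snora47, at 0.625 and 1.25 FPKM, and neither lay outside the middle 95% of its class. Col7a1,Mir711,Ucn2, which holds the collagen of epithelial anchoring fibrils, did lie outside, at 8.47 and 14.3 FPKM, a log2 difference of 0.76. Dnaja1,Mir207, with a co-chaperone of Hsp70, was at 47.5 and 64.0 FPKM. In the other direction Mir5116,Mmgt1 was at 18.7 and 13.9 FPKM, Gas5,Mir5117, a snoRNA host, at 93.4 and 75.8 FPKM, and Ccnf,Mir5134, with a cyclin, at 2.62 and 1.44 FPKM.

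Some microRNA families known for particular tissues could be followed only through a merged row. Hoxd3,Hoxd4,Mir10b, in the Hox cluster, was at 6.40 and 6.23 FPKM. The precursor of miR-22, 2210403K04Rik,Mir22, was at 22.0 and 22.5 FPKM, and the precursor row A330023F24Rik,Mir29b-2,Mir29c was at 6.40 and 6.60 FPKM, with a failed calculation. C430049B03Rik,Mir322,Mir351,Mir503 was at 3.33 and 2.33 FPKM. Mir5129,Zeb2, which holds a repressor of E-cadherin and a known target of the miR-200 family, was at 16.5 and 18.4 FPKM, a log2 difference of 0.16.

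The imprinted region between Meg3 and Mirg on chromosome 12 was lower in miR-21-/- glands in each microRNA-carrying row that was detected in both genotypes. Meg3 and Mirg are noncoding RNAs made from the maternal chromosome, and the microRNAs between them lie in the same orientation. The region spans 208.5 kb (chr12:110779197-110987667, mm9) and holds 49 microRNA-carrying loci, of which 37 were listed at 0 in both genotypes. Meg3,Mir1906-1,Mir770 was at 81.3 and 56.4 FPKM, AF357359,Mir370,Rian at 38.1 and 24.9 FPKM, and Mir3072,Mir369,Mir377,Mir409,Mir410,Mir412,Mirg at 6.84 and 4.25 FPKM.

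The log2 differences of these 3 long rows were -0.53, -0.61 and -0.69, which set miR-21-/- at 0.694, 0.655 and 0.622 of the miR-21+/+ level. The hairpin-sized Mir485 row was at 1.53 and 0.925 FPKM, a log2 difference of -0.73, and 6430411K18Rik,Mir127, which lies on the strand opposite to Rtl1, was at 0.557 and 0.180 FPKM. All 4 loci over 1 FPKM were lower, with a median of -0.65, but none of them left the middle 95% of other named loci at their level. Loci of 1 region can share 1 transcript and are not separate measurements.

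Another 7 rows in the region were above 0 in 1 genotype only, 4 in miR-21+/+ (Mir299, Mir337, Mir453 and Mir541, at 0.955 FPKM or less) and 3 in miR-21-/- glands (Mir431, Mir3070a and Mir1193, at 0.557 FPKM or less). Genes that are made from the paternal chromosome were low, with Dlk1 beside the region at 0.484 and 0.562 FPKM and Rtl1 within it at 0.106 and 0.143 FPKM. The row of Mir1906-1 on the X chromosome, a second exact copy of the hairpin within Meg3, was at 19.4 and 13.8 FPKM, a log2 difference of -0.48 beside the -0.53 of Meg3. Reads of the 2 copies cannot be told apart by sequence.

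**Figure D3:**
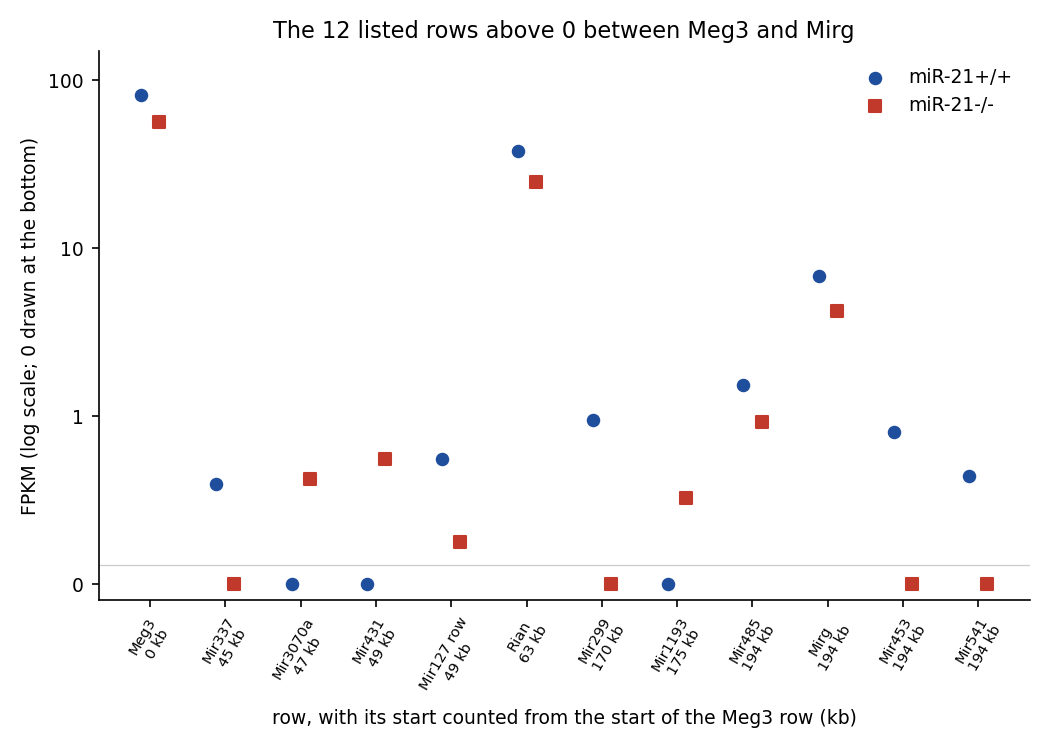
FPKM (vertical axis, log scale, with 0 drawn at the bottom) of the 12 microRNA-carrying rows above 0 between Meg3 and Mirg, in order of their start in kb from the start of the Meg3 row, for miR-21+/+ (blue circles) and miR-21-/- glands (red squares). The Meg3, Mir127, Rian, Mir485 and Mirg rows were lower in miR-21-/- glands, and the other 7 rows were above 0 in 1 genotype only.

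Another imprinted locus went the other way at the level of its host. Mir335 lies in an intron of Mest (chr6:30691299-30691396, plus strand), a gene expressed from the paternal chromosome, and its row was listed at 0 in both genotypes. The Mest row stood at 9.21 FPKM in miR-21+/+ and 21.1 FPKM in miR-21-/- glands, a log2 difference of 1.20. Mir483 was likewise at 0 within Igf2, which was at 5.66 and 4.53 FPKM.

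This was the usual relation between a hairpin row and its host when the table lists them apart. For 87 hairpins annotated in GENCODE vM1 whose host row was over 5 FPKM, the microRNA row was at 0 in both genotypes in 64 (73.6%), 10 of them rows marked as failed calculations, and it was over 1 FPKM in 10. Where the hairpin lay in an intron 62 of 79 were at 0 (78.5%), and where it lay in an exon 2 of 8 (25%). Of all microRNA-only rows 74.8% were at 0, and of the longer rows inside or across another named row 75.9%. The share at 0 with a host over 5 FPKM was thus near that of microRNA-only rows in general. Rows in introns were at 0 more often than those in the few exons, a difference that was not tested.

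Among the rows at 0 with expressed hosts were Mir126, the endothelial microRNA, in Egfl7 (22.5 and 23.3 FPKM, with failed calculations for both rows), Mir103-1 in Pank3 (71.2 and 68.4 FPKM), Mir33 in Srebf2 (18.1 and 17.4 FPKM) and Mir511 in Mrc1 (50.3 and 61.8 FPKM). Mir107 was at 0 in Pank1, which was at 6.89 and 3.74 FPKM, and Mir455, whose row was a failed calculation, at 0 in Col27a1, at 6.31 and 3.79 FPKM. Of the hosts of these 87 hairpins 2 were past 2-fold, Mest upwards and Slit2, the host of Mir218-1, downwards at 7.22 and 3.03 FPKM. The Mir218-1 row itself was at 0.159 and 0.162 FPKM.

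Several microRNA rows over 1 FPKM had another ratio between the genotypes than their host row. Mir1982, in an intron of Oaz1, was at 5.89 and 3.39 FPKM while Oaz1, which restrains polyamine synthesis, was at 194 and 184 FPKM. Mir186, in an intron of Zranb2, was at 4.63 and 2.93 FPKM beside 34.5 and 33.7 FPKM. Mir25 was at 1.84 and 1.16 FPKM beside Mcm7, a subunit of the replicative helicase, at 13.2 and 11.6 FPKM, and Mir7-1 at 1.13 and 1.44 FPKM beside Hnrnpk at 183 and 184 FPKM. The log2 differences of these 4 microRNA rows ran from -0.80 to 0.35, at levels where other loci varied as much, and 4 further rows with larger steps, Mir1943, Mir1981, Mir707 and Mir140, are described with the low rows.

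**Figure D4:**
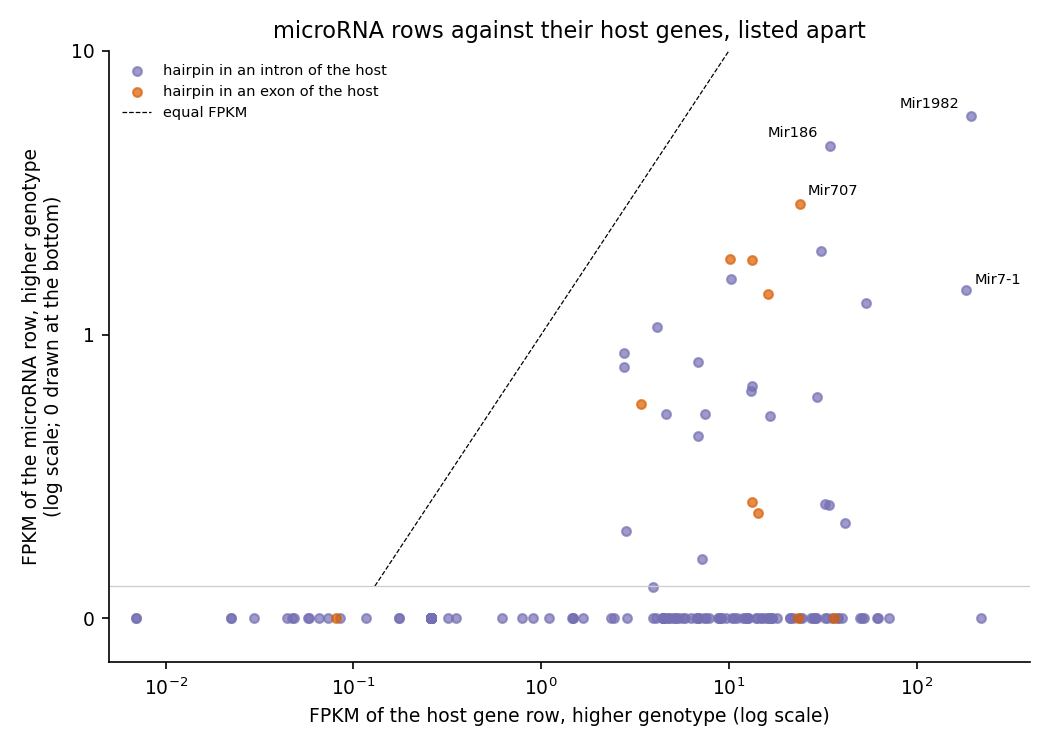
FPKM of the microRNA row (vertical axis, log scale, with 0 drawn at the bottom) against FPKM of the host gene row (horizontal, log scale), each in the higher genotype, for 162 hairpins, each counted once, listed apart from a host above 0. All readable rows lie to the right of the dashed line of equal FPKM, and 132 of the 162 lie at 0.

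Several of the highest microRNA-only rows hold sequence of abundant messenger RNAs. Mir703, the highest of all, was at 44.3 and 43.6 FPKM, and its hairpin is 98.2% identical over 109 bases to the messenger RNA of Eef1a1, the translation elongation factor, which was at 2655 and 2632 FPKM. Mir682 was at 9.0 and 10.1 FPKM and is 99.0% identical to Rpl37a, a ribosomal protein gene at 309 and 322 FPKM. For both rows the level is thus uncertain, since reads of the messenger RNA can align to them.

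The level is as uncertain for Mir684-1, whose hairpin is identical to part of Sumo2, a ubiquitin-like modifier. There were 8 microRNA-only Mir684-1 rows and 5 of them, all hairpin-sized, had the same pair of values, 4.94 and 4.81 FPKM, with the hairpin present in 9 exact copies on mm9. The merged row Mir684-1,Sumo2 was at 145.9 and 140.7 FPKM. These rows count as separate loci above, and counted once they leave 54 microRNA-only loci with 11 higher and 3 lower.

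Several of the microRNA-only rows past 2-fold lie on the strand opposite to an exon of another gene, and the library did not mark strand, so reads of the gene and of the microRNA transcript cannot be told apart. Mir762 was at 2.18 and 5.98 FPKM, a log2 difference of 1.46, and its hairpin (chr7:134852001-134852076) lies opposite an exon of Bcl7c, a chromatin remodelling subunit at 10.7 and 13.1 FPKM. Mir1896, opposite Zfp187, was at 0.0963 and 4.59 FPKM with a failed calculation. Mir1895, opposite Cxxc4, was at 1.49 and 0.501 FPKM, a log2 difference of -1.57. Mir1905, below the limit, was at 3.12 and 5.0 FPKM and lies opposite Mex3a, an RNA-binding protein gene with nearly the same values, 2.96 and 4.92 FPKM.

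Among the 20 highest microRNA-only rows were also Mir1932, at 15.1 and 12.4 FPKM, and Mir3471-1, at 8.85 and 7.84 FPKM, both with failed calculations. Mir3083 was at 8.74 and 8.80 FPKM, and Mir1901, which lies opposite an exon of Cables1 (9.87 and 10.9 FPKM), at 6.13 and 4.49 FPKM. None of these 4 passed 2-fold.

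The other loci past 2-fold were mostly low rows inside larger genes. Mir1943 was at 0.655 and 1.97 FPKM within Tmem184b, which was at 31.1 and 29.3 FPKM, and Mir1981 at 0.533 and 1.29 FPKM within Mosc2, at 53.5 and 41.2 FPKM. Mir3060 was at 1.03 and 2.5 FPKM, Mir1949 at 0.865 and 2.10 FPKM, and Mir466i at 0.392 and 1.42 FPKM with a failed calculation. The third lower locus beside Mir142 and Mir1895 was the hairpin-sized row of Mir680-2, at 1.02 and 0.463 FPKM. Its sequence is 97.3% identical over 110 bases to the coding transcript Gm14226, so reads of that transcript can align to it. Every one of the microRNA rows of this paragraph with values given was under 3 FPKM in both genotypes.

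Beyond these, 9 microRNA-only loci were over 1 FPKM in 1 genotype and listed at 0 in the other, so that no ratio can be given. In miR-21-/- glands these were Mir707 (2.90 FPKM), Mir30d (1.78), Mir140 (1.57), Mir1945 (1.56), Mir200b (1.23), Mir125a (1.15) and Mir99a (1.07 FPKM). In miR-21+/+ glands they were Mir132 (1.21 FPKM) and Mir339 (1.06 FPKM). Mir140, a microRNA of cartilage, lies in an intron of Wwp2, which was at 8.63 and 10.2 FPKM, and Mir707 in the untranslated region of Akt1s1, at 23.8 and 22.6 FPKM.

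The remaining groups held few readable loci. Of 14 loci of the 17-92 cluster and its paralogs 8 were at 0 in both genotypes and 2 were compared, with 1 higher and 1 lower, and of 6 loci of the miR-15 and miR-16 family only Mir16-1 was above 0, at 2.77 and 2.56 FPKM. Of 10 loci known for fat and metabolism 6 were at 0 and only Mir365-2 passed the minimum, beside adipocyte markers that were lower for 5 of 6 genes with a median log2 difference of -0.44. Of 6 Hox cluster loci 0 were at 0 in both genotypes, and only the Mir10b row passed 1 FPKM. Of 41 loci of imprinted clusters 33 were at 0 and 4 were compared, 3 of them lower. The endothelial and fibroblast markers had medians of 0.05 and -0.16, and no marker of any list was at 0 in both genotypes.

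The genes that make and use microRNAs differed little between the genotypes. All 26 genes of the pathway were in the table and 24 passed the minimum, with 0 past 2-fold, 15 higher and 9 lower and a median log2 difference of 0.01. Drosha was at 11.5 and 11.1 FPKM, Dgcr8, itself in a merged row with Mir1306, at 11.8 and 12.7 FPKM, and the export receptor Xpo5 at 10.2 and 10.4 FPKM. Dicer1 was at 8.81 and 9.74 FPKM, with a failed calculation, and the Argonaute gene Eif2c2 at 9.84 and 9.26 FPKM. The largest difference in the list was in Zcchc3, at 2.11 and 3.26 FPKM, which has no established part in the pathway, and the next largest, -0.26 on the log2 scale, was in Mov10. Lin28a and Lin28b, which block let-7 maturation, were below 0.01 FPKM in both genotypes.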

How the data were processed

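Poly(A) RNA of mammary glands from 2 miR-21+/+ and 2 miR-21-/- mice was sequenced on an Illumina HiSeq after TruSeq preparation, which does not mark strand. The authors aligned single-end reads to mm9 with TopHat, used CASAVA, and deposited 1 Cuffdiff table whose FPKM values combine the 2 mice of a genotype, together with fold changes, test statistics, p and q values and a significance flag. Those comparison columns were not used. Versions are not given in the sources used here. A status column marks failed calculations.

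Loci were chosen by name, and FPKM were compared as log2 ratios without a pseudocount, in loci above 0 in both genotypes and over 1 FPKM in at least one, with a limit of 2-fold. As no mouse has its own value, no new test, error or depth could be given. The middle 95% of log2 ratios of other named loci in the same FPKM class describes spread between loci, not between mice. It is not matched for locus length, so a short locus outside it may be less unusual than the range makes it look. The table counts starts from 0, and 1 was added. Hairpins were placed with GENCODE vM1, and mature strands and hairpin copies were found by exact match on mm9. Likeness of hairpins to messenger RNAs was searched with blastn 2.17.0 at an E-value of 1e-05. Python 3.11.15 with pandas 2.3.3 was used, and the counting was tested on simulated data. The 20 microRNA-only and 10 merged loci of highest mean FPKM, microRNA-only loci past 2-fold, the 15 merged loci over 5 FPKM with the largest difference in each direction, the microRNA groups, pathway genes and marker lists were named. Mir31, Mir148a, Mir221, Mir30c-2, Mir331 and other loci outside that rule were chosen after their values were seen. The loci and lists were chosen with earlier results of these data known.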

Additional observations from a re-analysis of the deposited data

How the results depend on the processing

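No test and no spread between mice stands behind any difference given here, since the authors' test results were not used, and the read depth is unknown. No paired analysis was possible because each genotype has 1 value per locus, and for the same reason no mouse could be left out. The count of 14 microRNA-only loci past 2-fold became 2 over 5 FPKM, 5 over 1 FPKM in both genotypes, 22 with a pseudocount of 0.1 FPKM, 23 at 1.5-fold and 4 at 3-fold. The count of 2 merged loci became 4 with no minimum, 0 over 5 FPKM, 1 over 1 FPKM in both genotypes, 0 with a pseudocount of 1 or 0.1 FPKM, 8 at 1.5-fold and 0 at 3-fold. Of the pathway list 1 gene, Zcchc3, passed 1.5-fold. Both columns scaled to equal sums over all loci gave medians of -0.64 for both kinds of locus, 3 higher and 12 lower microRNA-only loci and 7 merged loci, all lower. The largest value in the miR-21-/- sum was 222080 FPKM, in 1 unnamed row on chromosome 2 that stood at 35393 FPKM in miR-21+/+ glands. The largest miR-21+/+ value, 44087 FPKM, was in another row. How much of the shift comes from any single row was not tested. Equal sums over named loci moved log2 differences by 0.10 and an equal upper quartile by 0.03. Both shifts are below 0.34, the smallest SD of any FPKM class. None of the 77 microRNA-carrying loci examined singly could therefore move by more than the SD of its class. With equal sums over all loci 65 of the 77 moved by more than that SD. With a pseudocount of 1 FPKM 5 did, and with 0.1 FPKM 1 did. Rows with a good status alone, or identical rows counted once, left the counts within 1.5 times.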
